A study of Mus musculus with 53 samples.

Results

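The comparison described here sets WGD+ against WGD- tumours of the mouse mammary tumour line TA3 Hauschka in hosts treated with an antibody against CD8, and asks which differences between the 2 forms remain when CD8 T cells are depleted. Its members are the libraries whose titles carry anti-CD8 treatment: 3 of WGD+ tumours and 2 of WGD- tumours, 5 of the 17 libraries of the antibody experiment and of the 53 libraries of the series. WGD stands for whole genome doubling. WGD+ cells carry a doubled genome and WGD- cells are the form of the same line without it. Hosts were 6-week-old female A/J mice, an immunocompetent inbred strain. Cells of either form, mixed with Matrigel, were placed in an inguinal mammary fat pad, and the antibody was given for 14 days. The comparison beside it uses 3 WGD+ and 3 WGD- tumours in A/J mice under an isotype control antibody for 14 days, and a further one uses 3 WGD+ and 3 WGD- tumours under vehicle in an immunodeficient host called NSG in the titles. That host is NOD.Cg-Prkdcscid Il2rgtm1Wjl with a transgene for IL3, CSF2 and KITLG driven by the CMV promoter. Hosts of both these comparisons were also 6 weeks old, and vehicle was given for 14 days. The NSG groups follow the titles: the genotype field gives WGD- for all 6 of these libraries, against the title in the 3 titled WGD+. The labels do not say how many clones each form represents, nor whether the libraries of a group came from separate animals, so a p-value here measures the spread between these libraries.

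Whole genome doubling is a common event in tumours, in which a cell duplicates its chromosome set without dividing. Doubled cells differ from their parents in cell size, ploidy and, after later losses and gains, in the balance of their chromosomes. CD8 T cells kill tumour cells that present antigen on MHC class I and release interferon gamma, which raises antigen presentation, chemokines and the checkpoint ligand PD-L1 in the cells around them. An antibody against CD8 is a standard way to deplete these cells in mice.

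Values are the deposited log2(CPM + 1), where CPM is the read count scaled to library size, and a difference is the WGD+ mean minus the WGD- mean on that scale. At low levels this understates the log2 ratio. Between 11.4 and 14.2 M reads (M, mega) were assigned to genes in the 5 libraries, and a single read was worth 0.0692 to 0.0885 CPM. Replicates of the anti-CD8 groups had a median SD over genes of 0.197 in WGD+ and 0.129 in WGD-, the latter from 2 libraries only. In the other groups of the antibody experiment it was 0.201 to 0.287. Single gene lists differed more between replicates, as given below. Best correlations with another library put 4 libraries of the antibody experiment apart from the rest, 2 WGD- isotype and 2 WGD- anti-PD-L1 tumours, and none of the anti-CD8 libraries. A gene was called when its Benjamini-Hochberg adjusted p was under 0.05 in limma over all 13840 genes tested.

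Transcripts of the targeted cells were low in all 5 anti-CD8 libraries. Cd8a, the alpha chain of the CD8 co-receptor, was at 0.61, 0.42 and 0.19 in WGD+ tumours and at 0.67 and 0.38 in WGD- tumours. Under isotype antibody Cd8a was at 1.10, 0.51 and 0.38 in WGD+ tumours and at 1.53, 3.21 and 3.10 in WGD- tumours. The 2 forms overlapped under anti-CD8 and did not under isotype antibody. Anti-CD8 minus isotype was -2.09 ± 0.86 (SE) for Cd8a in WGD- tumours and -0.26 ± 0.77 in WGD+ tumours, with unadjusted p = 0.0291 and 0.743 in limma and neither called (adjusted p = 0.389 and 0.949). Cd8b1, the beta chain, was listed at 0 in both WGD- anti-CD8 libraries, which allows up to 0.253 and 0.223 CPM at these depths, and at 0.24, 0.33 and 0.10 in WGD+ libraries. In these bulk samples fewer cells of a type and less RNA per cell cannot be told apart.

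In hosts given anti-CD8, 217 of 13840 genes differed between WGD+ and WGD- tumours (1.57%): 80 were higher in WGD+ (0.578%) and 137 lower (0.99%). The higher genes included transporters and enzymes of amino acid, glycine and folate metabolism and several aminoacyl-tRNA synthetases, and the lower genes included epithelial surface proteins, p53 targets and genes of sterol handling. Quantile scaling gave 105 higher and 118 lower calls. All 217 had non-overlapping groups, as did 6580 of all 13840 genes (47.5%). The calls need every library but one: leaving out WGD- library 1 or 2 or WGD+ library 1 or 3 left 0 to 1 calls, leaving out WGD+ library 2 gave 609, and leaving out the 4 libraries that stand apart gave 94, of which 82 were among the 217.

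Slc7a11, the cystine-importing subunit of the cystine/glutamate antiporter (mm10 chr3:49892526-50443614), had the largest increase among the called genes named. It was at 6.46, 6.81 and 7.19 in WGD+ tumours and at 4.22 and 4.33 in WGD- tumours, a difference of 2.54 ± 0.46 (SE; limma adjusted p = 0.0257). The groups stood more than 2 units apart with no overlap. Slc6a9, a glycine transporter (chr4:117834506-117875198), was at 5.61, 5.57 and 6.07 in WGD+ and at 2.82 and 4.14 in WGD-, a difference of 2.27 ± 0.32 (adjusted p = 0.0141). The WGD- libraries differed from each other here, and both lay under all WGD+ libraries. Slc1a4, a transporter of alanine, serine and cysteine (chr11:20302180-20332713), was at 4.78, 4.89 and 4.90 in WGD+ and at 3.0 and 3.62 in WGD- (1.55 ± 0.24, adjusted p = 0.017).

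Several enzyme genes were also called as higher. Mthfd2, the mitochondrial enzyme that passes one-carbon units on folate (chr6:83305691-83325908), was at 8.58, 8.32 and 8.59 in WGD+ tumours and at 7.28 and 7.40 in WGD- tumours (1.16 ± 0.19, limma adjusted p = 0.017). Shmt2, which releases such units from serine in mitochondria, was at 9.11, 8.89 and 9.10 in WGD+ and at 7.95 and 7.94 in WGD- (1.09 ± 0.26, adjusted p = 0.0481). Neither gene's groups overlapped. Chac1, which breaks down glutathione, was at 4.69, 4.59 and 4.78 in WGD+ and at 2.71 and 3.49 in WGD- (1.59 ± 0.36, adjusted p = 0.0421). Prodh, the first enzyme of proline breakdown, differed by 1.17, Bcat1, which transaminates branched-chain amino acids, by 1.25, Pck2, the mitochondrial phosphoenolpyruvate carboxykinase, by 0.97, and Cebpg, a bZIP transcription factor that pairs with ATF4, by 0.68, all called. Shmt2, Bcat1 and Pck2 lie outside the rule for naming genes and were picked after their values were seen.

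**Figure D1:**
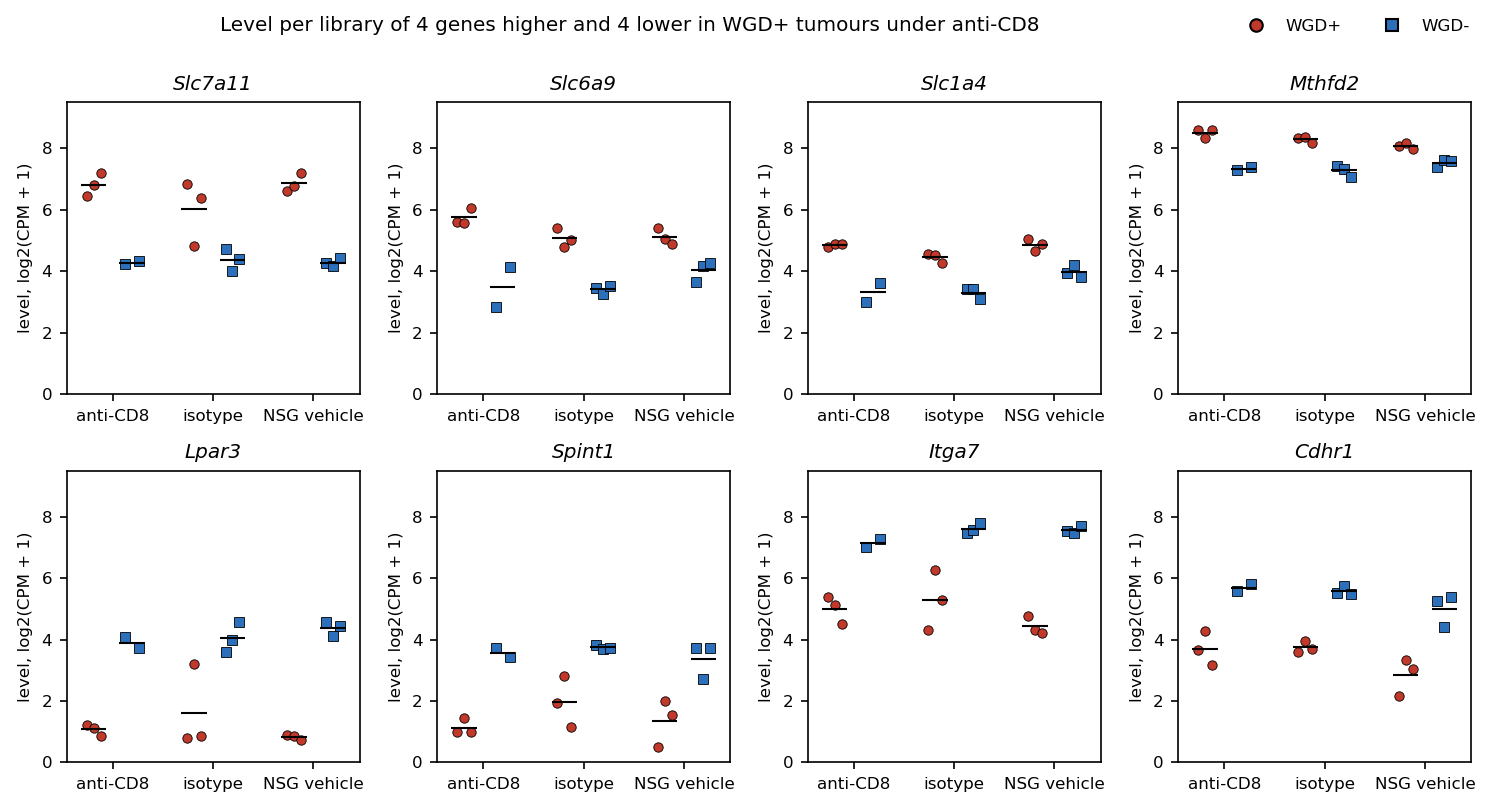
Level per library on the deposited log2(CPM + 1) scale (vertical axis) of 4 genes higher in WGD+ tumours and 4 lower, in WGD+ (circles) and WGD- (squares) tumours under anti-CD8, isotype antibody and vehicle in the NSG host; bars are group means. Under anti-CD8 no WGD+ library overlaps a WGD- library in any of the 8 genes. The 4 lower genes were called in the other 2 settings too. Slc6a9, Slc1a4 and Mthfd2 were called under isotype antibody and not in the NSG host. Slc7a11 was called in the NSG host and not under isotype antibody, where the WGD+ spread was wider for Slc7a11 and Lpar3.

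The aminoacyl-tRNA synthetases charge tRNAs with amino acids, and ATF4, the transcription factor of the integrated stress response, is known to induce many of them. Of 20 cytosolic synthetase genes, a family listed after the calls were seen, 3 rose in WGD+ tumours under anti-CD8, beside 0.578% of all genes, none fell, and the family's median difference was 0.36, against a median of -0.00498 over all genes tested. Yars was at 7.35, 7.28 and 7.60 in WGD+ and at 6.24 and 6.41 in WGD- (1.09 ± 0.19, limma adjusted p = 0.017). Aars was at 8.34, 8.19 and 8.36 in WGD+ and at 7.35 and 7.45 in WGD- (0.89 ± 0.18, adjusted p = 0.0311), and Lars differed by 0.76 (adjusted p = 0.0414). In all 3 genes every WGD+ library lay above both WGD- libraries. Of 13 enzymes of serine, glycine and one-carbon metabolism, listed likewise, Shmt2 and Mthfd2 rose, beside the same 0.578% of all genes, and none fell, with a median of 0.14 (0.09 without WGD+ library 2). Of the serine synthesis genes, Phgdh differed by 0.58 and Psat1 by 0.14, neither called.

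In the list of the unfolded protein and integrated stress response, Chac1 was the call among 12 genes tested, beside 0.578% higher calls over all genes. The list's median was 0.53 (0.29 without WGD- library 1), with 8 positive differences. Atf4 itself was at 9.78, 9.55 and 9.54 in WGD+ and at 8.79 and 8.88 in WGD-, a difference of 0.79 that missed the threshold (limma adjusted p = 0.0545). Members of the endoplasmic reticulum branch had negative differences, -0.62 for the chaperone Hspa5 and -0.59 for Dnajb9, neither called. In the NRF2 and cystine-glutathione list Slc7a11 was the call of 12, beside the same 0.578%, and the median was -0.25. Slc3a2, the heavy chain that carries Slc7a11 to the membrane, differed by 0.82 (adjusted p = 0.0545), while the NRF2 targets Nqo1 at -0.68 and Srxn1 at -0.69 had the opposite sign, uncalled.

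The letters TGATGNAA, with N any base, are the core of the amino acid response element to which ATF4 and C/EBP proteins bind as pairs. They were sought on both strands in the RefSeq promoter windows of GRCm38.p6, 250 bases before to 50 after the start each window uses, and no other motif was searched. Of the 80 higher genes 66 had a window and 8 held the letters (12.1%): Aars, Anp32b, Chac1, Cmc2, Pck2, Slc1a4, Slc7a11 and Yars. The share was 1.82% for the 110 lower genes with a window, 2.92% for all 10812 tested genes with one and 3.97% for all 32851 windows. The sequences below are shown because they hold these letters, in capitals, in the promoter windows of genes that rose. The first 2 are the 250 bases before the start, for Slc7a11 at chr3:50443614-50443863 (minus strand) and for Chac1 at chr2:119350992-119351241 (plus strand). The others are 30-base stretches, for Slc1a4 at chr11:20332699-20332728 (minus), Yars at chr4:129189895-129189924 (plus) and Pck2 at chr14:55540152-55540181 (plus).
Slc7a11: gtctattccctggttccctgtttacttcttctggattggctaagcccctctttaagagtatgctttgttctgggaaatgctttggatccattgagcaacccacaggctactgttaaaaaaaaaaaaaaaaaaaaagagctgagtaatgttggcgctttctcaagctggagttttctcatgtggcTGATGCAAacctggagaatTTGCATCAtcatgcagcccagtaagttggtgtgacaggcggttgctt
Chac1: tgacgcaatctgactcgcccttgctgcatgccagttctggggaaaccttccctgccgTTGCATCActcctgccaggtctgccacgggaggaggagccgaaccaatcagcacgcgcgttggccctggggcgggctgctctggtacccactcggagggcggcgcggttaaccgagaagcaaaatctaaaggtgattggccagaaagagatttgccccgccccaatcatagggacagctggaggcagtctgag
Slc1a4: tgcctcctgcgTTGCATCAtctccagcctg
Yars: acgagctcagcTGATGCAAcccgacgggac
Pck2: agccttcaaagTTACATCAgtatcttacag
Slc7a11 holds the letters at 2 places, 66 and 47 bases before its start, 1 on each strand, and Chac1 at 193 bases before its start, while the match of Yars begins 4 bases after the start. A match is a description of the sequence and not a measured site.

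Other increases fell on genes of varied function. Cbx6, a chromobox protein of Polycomb complexes, was at 6.85, 5.85 and 6.36 in WGD+ and at 4.61 and 4.83 in WGD- (1.63 ± 0.31, limma adjusted p = 0.0258). Differences among the other genes with the largest increases were 1.58 for Gpr62, an orphan receptor, 1.36 for Grin3b, an NMDA receptor subunit, 1.35 for Mettl1, a tRNA methyltransferase, 1.29 for the phosphatase gene Lhpp, 1.27 for Rmi2, a subunit of the BLM complex that resolves DNA junctions, 1.27 for Rex1bd and 1.26 for Polr2l, a subunit shared by RNA polymerases, all called. Birc5, which encodes the mitotic protein and apoptosis inhibitor survivin, was at 7.99, 7.55 and 7.68 in WGD+ and at 6.81 and 6.74 in WGD- (0.96 ± 0.20, adjusted p = 0.035). It was the call among 16 tested G2/M genes, beside 0.578% higher calls over all genes, and the list's median was 0.08. No gene of the DNA replication list of 16 or of the spindle and centromere list of 14 was called, and their medians were 0.20 and 0.03. Kif18a, a mitotic kinesin that doubled cells are known to depend on, was at 3.15, 4.01 and 3.57 in WGD+ and at 4.79 and 4.91 in WGD- (-1.28, adjusted p = 0.0898).

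Lpar3, a receptor for lysophosphatidic acid (chr3:146220963-146286186), had the largest decrease among the called genes named. It was at 1.22, 1.13 and 0.87 in WGD+ tumours and at 4.09 and 3.71 in WGD- tumours, a difference of -2.82 ± 0.54 (SE; limma adjusted p = 0.0258). Spint1, a Kunitz-type inhibitor of serine proteases on epithelial cells (chr2:119237362-119249527), was at 0.98, 1.43 and 0.98 in WGD+ and at 3.71 and 3.43 in WGD- (-2.44 ± 0.37, adjusted p = 0.017). Both genes were low in all 3 WGD+ libraries and well detected in both WGD- libraries. Itga7, the laminin-binding integrin alpha 7 (chr10:128933818-128958282), was at 5.39, 5.11 and 4.5 in WGD+ and at 7.02 and 7.27 in WGD- (-2.15 ± 0.49, adjusted p = 0.0465). Cdhr1, a cadherin known from photoreceptors (chr14:37077857-37098347), was at 3.66, 4.28 and 3.17 in WGD+ and at 5.58 and 5.80 in WGD- (-1.99 ± 0.28, adjusted p = 0.0141). The next largest decreases were -2.09 for Prrg4, a membrane Gla protein, -2.01 for Trim29, expressed in basal epithelia, -2.01 for Itih5, of the inter-alpha-trypsin inhibitor family, -1.99 for the urea transporter Slc14a1, -1.85 for Btbd3, -1.81 for the water and glycerol channel Aqp3, -1.80 for Aff2 and -1.78 for the collagen prolyl hydroxylase P3h2, all called.

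Tmprss4, a membrane serine protease, was at 1.37, 1.43 and 1.48 in WGD+ and at 3.09 and 2.96 in WGD- (-1.59 ± 0.26, limma adjusted p = 0.017). In the list of epithelial and keratin genes, however, none of 11 tested was called under anti-CD8 and the median was -0.38. The keratin Krt19, a luminal epithelial marker, differed by -1.99 and the claudin Cldn4 by -1.30, both uncalled. A limma fit of the 2 groups alone called both as lower (adjusted p = 0.0238 and 0.0252), among 389 lower calls of 13840 genes. The list's summed level was 2530 to 3330 CPM in WGD+ libraries and 3390 to 3600 CPM in WGD- libraries.

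Of 16 p53 target genes tested, 3 were lower in WGD+ than in WGD- tumours under anti-CD8, beside 0.99% of all genes. None was called as higher, 15 had a negative difference and the median was -0.35. Mdm2, the ubiquitin ligase that p53 induces and that degrades it, was at 6.23, 6.53 and 6.41 in WGD+ and at 7.09 and 7.13 in WGD- (-0.72 ± 0.15, limma adjusted p = 0.035). Ccng1, cyclin G1, was at 6.85, 7.51 and 7.21 in WGD+ and at 8.26 and 8.17 in WGD- (-1.03 ± 0.24, adjusted p = 0.0448). Eda2r, a receptor of the TNF receptor family, was at 3.12, 4.15 and 3.87 in WGD+ and at 5.14 and 5.29 in WGD- (-1.51 ± 0.33, adjusted p = 0.0389). In all 3 genes the WGD+ libraries were the lower ones without overlap. Cdkn1a, the cell cycle inhibitor p21, differed by -0.51 and the apoptosis gene Bax by -0.04, neither called. Under isotype antibody the list's median was 0.05 and none was called: Mdm2 differed by -0.21, Ccng1 by 0.10 and Eda2r by 0.03. The list's mean level in WGD- was 6.34 and 6.29 under anti-CD8, above the 5.91, 5.85 and 5.72 under isotype antibody. In WGD+ it was 5.7, 5.98 and 5.86 under anti-CD8 and 5.79, 5.68 and 6.08 under isotype antibody. The difference between the effects was -1.53 for Eda2r (unadjusted p = 0.00351, adjusted p = 0.247) and -1.12 for Ccng1 (unadjusted p = 0.00312, adjusted p = 0.247), so it was not called for either gene.

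**Figure D2:**
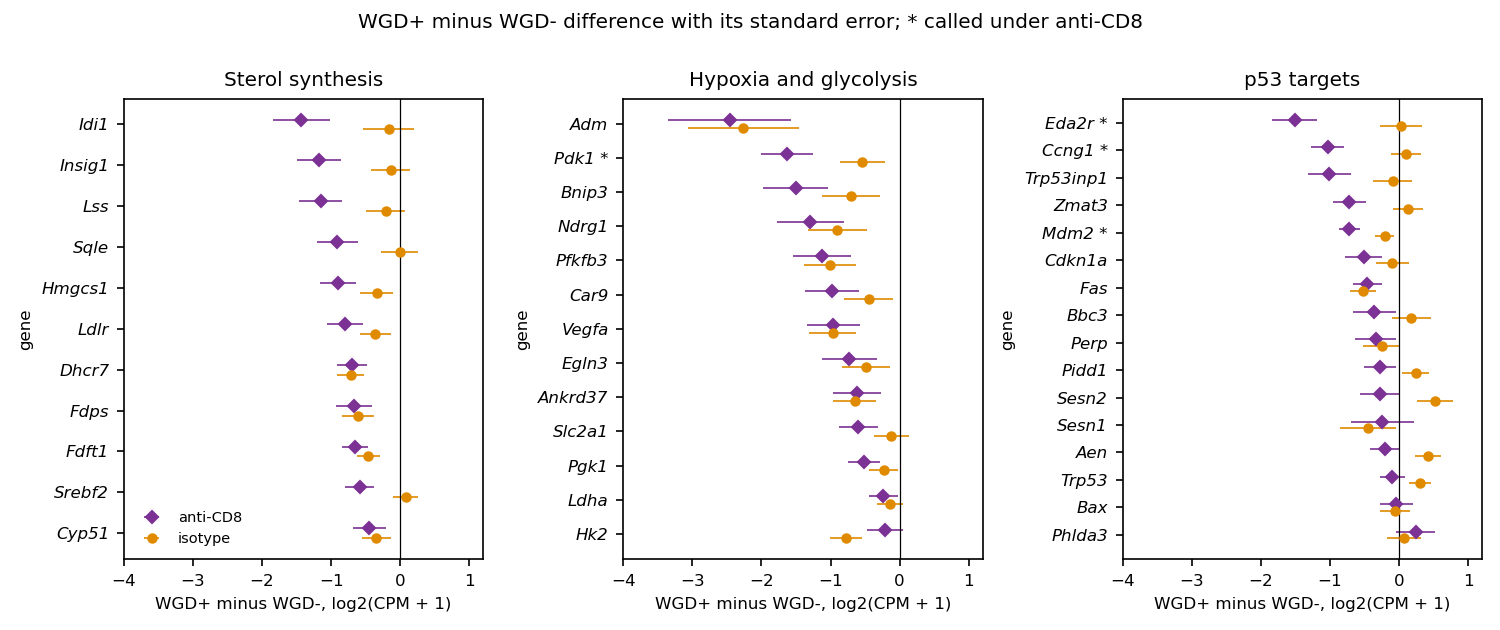
WGD+ minus WGD- difference with its standard error (horizontal axis, log2(CPM + 1) units) for genes of the sterol synthesis, hypoxia and glycolysis, and p53 target lists, under anti-CD8 (diamonds) and isotype antibody (circles); an asterisk marks a call under anti-CD8. For sterol synthesis 11 of the 12 genes tested are drawn. All of them and all 13 hypoxia genes lie left of 0 under anti-CD8, as do 15 of 16 genes of the p53 list, and 4 of the genes drawn carry an asterisk.

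Sterol synthesis genes, which SREBP transcription factors switch on when cholesterol is scarce, were all on the negative side. A lower WGD+ mean was found in 12 of 12 tested, with a median of -0.85. This median was -0.54 with WGD+ library 2 as the sole WGD+ library and -1.0 without that library. Of the 12, 1 was called as lower, beside 0.99% of all genes. The list's mean level was 5.49, 5.96 and 5.59 in WGD+ libraries and 6.52 and 6.59 in WGD- libraries. At an unadjusted p under 0.05 in limma stood 11 of the 12, beside 2940 of all 13840 genes. Among the 11 were Idi1 (-1.43), Insig1 (-1.18) and Lss (-1.15), with adjusted p of 0.0793, 0.0681 and 0.0681. Hsd17b7, an enzyme of the same pathway that was not in the list, was called at -1.40, and so was Npc1, which exports cholesterol from lysosomes, at -0.73. Both were picked after their values were seen. Under isotype antibody the sterol median was -0.30 with 0 called, and the 3 WGD+ isotype libraries, at 6.13, 7.04 and 5.94, spread across the WGD- libraries at 6.69, 6.59 and 6.73.

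Hypoxia and glycolysis genes, targets of HIF factors, had a median of -0.96 with 13 of 13 negative. Of the 13, 1 was called as lower, beside 0.99% of all genes. Pdk1, the kinase that keeps pyruvate out of mitochondria, was at 4.65, 5.81 and 4.5 in WGD+ and at 6.29 and 6.94 in WGD- (-1.63 ± 0.37, limma adjusted p = 0.0441). WGD+ library 2 was nearer to the WGD- libraries than the other two, and the whole list showed this: its mean level was 6.37, 7.53 and 6.22 in WGD+ and 7.35 and 8.05 in WGD-, so that the groups overlapped. With library 2 as the sole WGD+ library the list's median was -0.07, and without it -1.40. Adm, the vasodilator peptide adrenomedullin, had the largest difference of the list, -2.46, with 2.77, 4.97 and 1.89 in WGD+ and 4.97 and 6.37 in WGD- (adjusted p = 0.143).

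The same 2 WGD+ libraries that were low in hypoxia genes held transcripts of tissue around the tumour. Summed over the skeletal muscle list of 10 tested genes, the level was 2350, 39.9 and 1030 CPM in WGD+ libraries 1 to 3 and 171 and 42.3 CPM in WGD- libraries. Acta1, the actin of skeletal muscle, was at 9.10, 2.80 and 7.78 in WGD+ and at 6.00 and 2.35 in WGD-. The list's median difference was 2.39 with 0 of 10 called. Fibroblast and matrix genes followed the same libraries, at 1940, 699 and 2300 CPM in WGD+ and 991 and 629 CPM in WGD-. With library 2 as the sole WGD+ library the medians of the muscle and fibroblast lists were -0.58 and -0.10, and no gene was called (723 of 13840 at an unadjusted p under 0.05, by limma). Leaving out WGD+ library 1 alone, or 3 alone, also left 0 calls. The part of this tissue in the gene calls was not tested.

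Few immune genes were called under anti-CD8, and several lists lay slightly higher in WGD+ tumours. Of 19 interferon-gamma response genes 0 were called and the median was 0.20, of 13 MHC class I presentation genes 0 with a median of 0.45, of 13 macrophage genes 0 with 0.62, of 8 MHC class II genes 0 with 0.87, and of 11 CD8 and cytotoxic genes 0 with -0.01. In limma no gene of these 5 lists was at an unadjusted p under 0.05. The medians depend on single libraries: without WGD- library 1 the macrophage and MHC class II medians were 1.16 and 1.67, without WGD- library 2 they were 0.27 and 0.46, and without WGD+ library 1 the MHC class II median was 0.40 and the interferon-gamma median 0.05. Without WGD+ library 2 the interferon-gamma median was 0.32. Mean levels of the interferon-gamma list were 3.55, 3.30 and 3.30 in WGD+ libraries and 3.2 and 3.23 in WGD- libraries, so that the WGD+ libraries were slightly the higher ones. MHC class I was at 7.2, 7.06 and 6.85 in WGD+ and at 6.60 and 6.60 in WGD-, with the same order and no overlap. Macrophage genes were at 6.47, 5.46 and 6.38 in WGD+ and at 5.92 and 4.90 in WGD-, and there the groups overlapped.

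Single immune genes differed in how far the groups lay apart. Cd274, which encodes PD-L1, was at 2.62, 2.80 and 2.46 in WGD+ and at 2.70 and 2.58 in WGD- (-0.01 ± 0.82, limma adjusted p = 0.993). H2-K1, a classical MHC class I heavy chain whose reads may be shared with its close relatives, was at 10.21, 10.30 and 9.78 in WGD+ and at 9.19 and 9.39 in WGD- (0.81 ± 0.72, adjusted p = 0.559). The standard errors pool the spread of all 6 antibody groups. A limma fit of the 2 anti-CD8 groups alone called 800 of all 13840 genes, 411 higher and 389 lower in WGD+. By that limma fit H2-K1, H2-D1, Irf1 and Bst2 were called as higher, with adjusted p of 0.0378, 0.0409, 0.0425 and 0.0276. Foxp3, Itgax and Tnfrsf18 were called as higher too (limma adjusted p = 0.032, 0.0495 and 0.0451). Nos2, Ptgs2 and S100a8 were called as lower (limma adjusted p = 0.0393, 0.0352 and 0.0429). An exception on the T cell side was Cd5, a surface inhibitor of T cell receptor signalling, at 1.10, 1.19 and 0.98 in WGD+ and 2.54 and 1.97 in WGD- (-1.16 ± 0.28, adjusted p = 0.0453). It was the call among 13 tested genes of the T cell receptor list, beside 0.99% lower calls over all genes. That list had 7 positive differences and a median of 0.04. Foxp3, the factor of regulatory T cells, was at 5.13, 4.82 and 4.73 in WGD+ and at 3.98 and 3.94 in WGD- (0.93, limma adjusted p = 0.0621). It was also detected in every library of the NSG host, which lacks mature T cells, at levels given under other observations. How much of its level came from T cells was not tested.

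**Figure D3:**
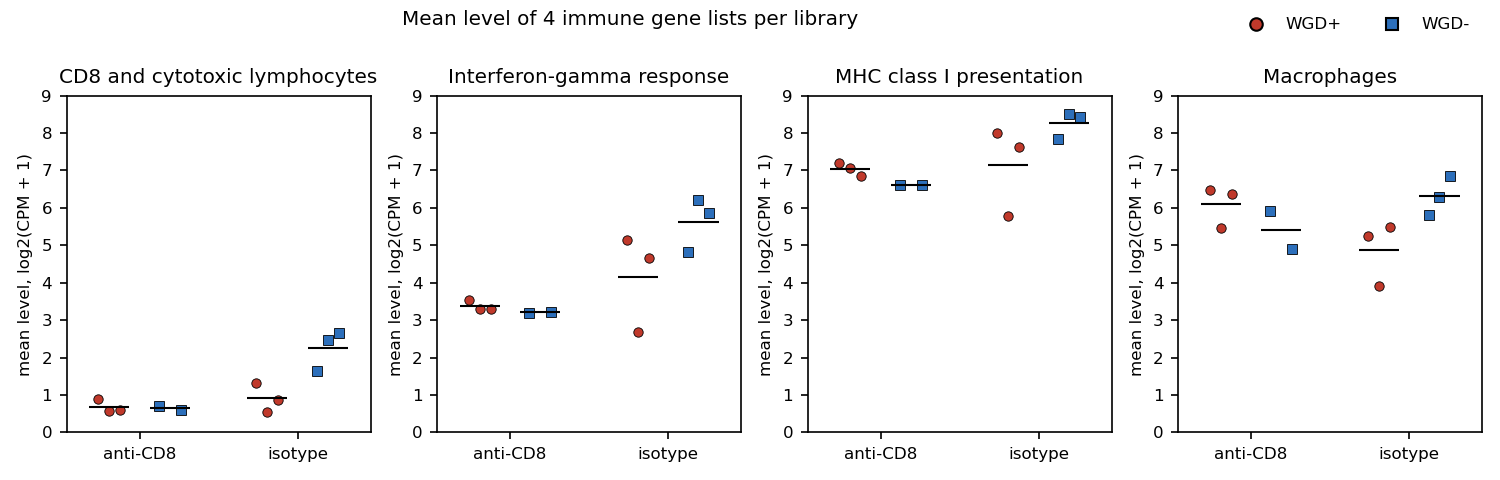
Mean level of 4 immune gene lists per library (vertical axis, log2(CPM + 1)) in WGD+ (circles) and WGD- (squares) tumours under anti-CD8 and isotype antibody; bars are group means. Under anti-CD8 the interferon-gamma list lies between 3.2 and 3.55 in all 5 libraries, and under isotype antibody it runs from 2.67 to 5.14 in WGD+ and from 4.83 to 6.21 in WGD- tumours.

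Under isotype antibody, 152 genes were called (1.1%), 60 higher in WGD+ (0.434%) and 92 lower (0.665%), and immune lists lay on the negative side. Medians were -1.47 for interferon-gamma genes, -1.09 for MHC class I, -1.36 for macrophages and -1.41 for CD8 and cytotoxic genes, with 1, 0, 0 and 0 members called. Fibroblast and endothelial medians were also negative, at -0.75 and -0.88, while those of the G2/M and DNA replication lists were 0.32 and 0.3. Mean levels of the interferon-gamma list were 5.14, 2.67 and 4.65 in WGD+ and 4.83, 6.21 and 5.85 in WGD-. The isotype WGD+ libraries spread more widely than the anti-CD8 ones, and the forms overlapped. Without the libraries that stand apart, 11 genes were called under isotype antibody.

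Among 8 granzyme genes tested, proteases that killer lymphocytes secrete, 0 were called under anti-CD8, beside 1.57% of all genes. Under isotype antibody 5 were lower in WGD+, beside 0.665% of all genes. Gzmc, Gzmd, Gzmf, Gzmg, Nos2 and Acod1 were named for being called under isotype antibody and not under anti-CD8. That contrast thus follows from the choice. Gzmd was at 2.07, 1.19 and 2.16 in WGD+ and at 2.04 and 1.52 in WGD- under anti-CD8 (0.02), and at 2.31, 0.15 and 0.68 in WGD+ and 4.0, 3.43 and 6.40 in WGD- under isotype antibody (-3.56, limma adjusted p = 0.0303). Gzmc, Gzme, Gzmf and Gzmg made up the rest, at -3.05, -2.56, -3.61 and -3.74 under isotype antibody and at 0.34, 0.23, -0.73 and -0.31 under anti-CD8. These genes are close copies of each other, so their reads could be split between them. Gzma and Gzmb, called in neither setting, differed by -1.5 and -2.93 under isotype antibody (limma adjusted p = 0.134 for each). Under anti-CD8 they differed by 0.25 and -0.01. Nos2, the inducible nitric oxide synthase, was at 2.81, 3.04 and 2.78 in WGD+ and 3.85 and 3.87 in WGD- under anti-CD8 (-0.98, adjusted p = 0.389) and differed by -2.99 under isotype antibody (adjusted p = 0.0303). Acod1, which makes itaconate in activated macrophages, differed by 0.06 under anti-CD8 and by -2.90 under isotype antibody (adjusted p = 0.0357).

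Whether an effect of WGD itself differed between the 2 antibodies was tested as an interaction, and no gene passed (0% of 13840, smallest adjusted p = 0.247 in limma, with 2304 genes at an unadjusted p under 0.05). A fit by voom on the recovered reads also called 0. The list medians of the difference between effects were 1.71 for interferon-gamma genes, 1.56 for MHC class I, 2.07 for macrophages and 1.55 for CD8 and cytotoxic genes, against -0.0129 over all genes, with 19 of 19, 13 of 13, 13 of 13 and 11 of 11 members positive. The shift was not limited to immune lists: medians were 2.78 for skeletal muscle, 1.55 for fibroblasts and 1.07 for endothelial cells. Negative medians included -0.61 for sterol synthesis and -0.51 for p53 targets. For Gzmd the difference was 3.59 (unadjusted p = 0.00296, adjusted p = 0.247). The smallest unadjusted p belonged to Esyt3, a tether between the endoplasmic reticulum and the plasma membrane, at 4.16, 4.51 and 4.52 in WGD+ and 5.33 and 5.24 in WGD- under anti-CD8, and at 5.10, 4.97 and 4.73 in WGD+ and 4.07, 4.22 and 4.21 in WGD- under isotype antibody. Its order was opposite in the 2 settings (-1.65 ± 0.28, unadjusted p = 2.57e-05, adjusted p = 0.247). On the positive side stood Csf3, the cytokine G-CSF, with 2.27 (unadjusted p = 0.000156), Apoc1, an apolipoprotein, with 1.93 and the NF-kB subunit gene Relb with 1.12, and on the negative side Nfatc1 with -1.09 and Nudt4 with -0.87.

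**Figure D4:**
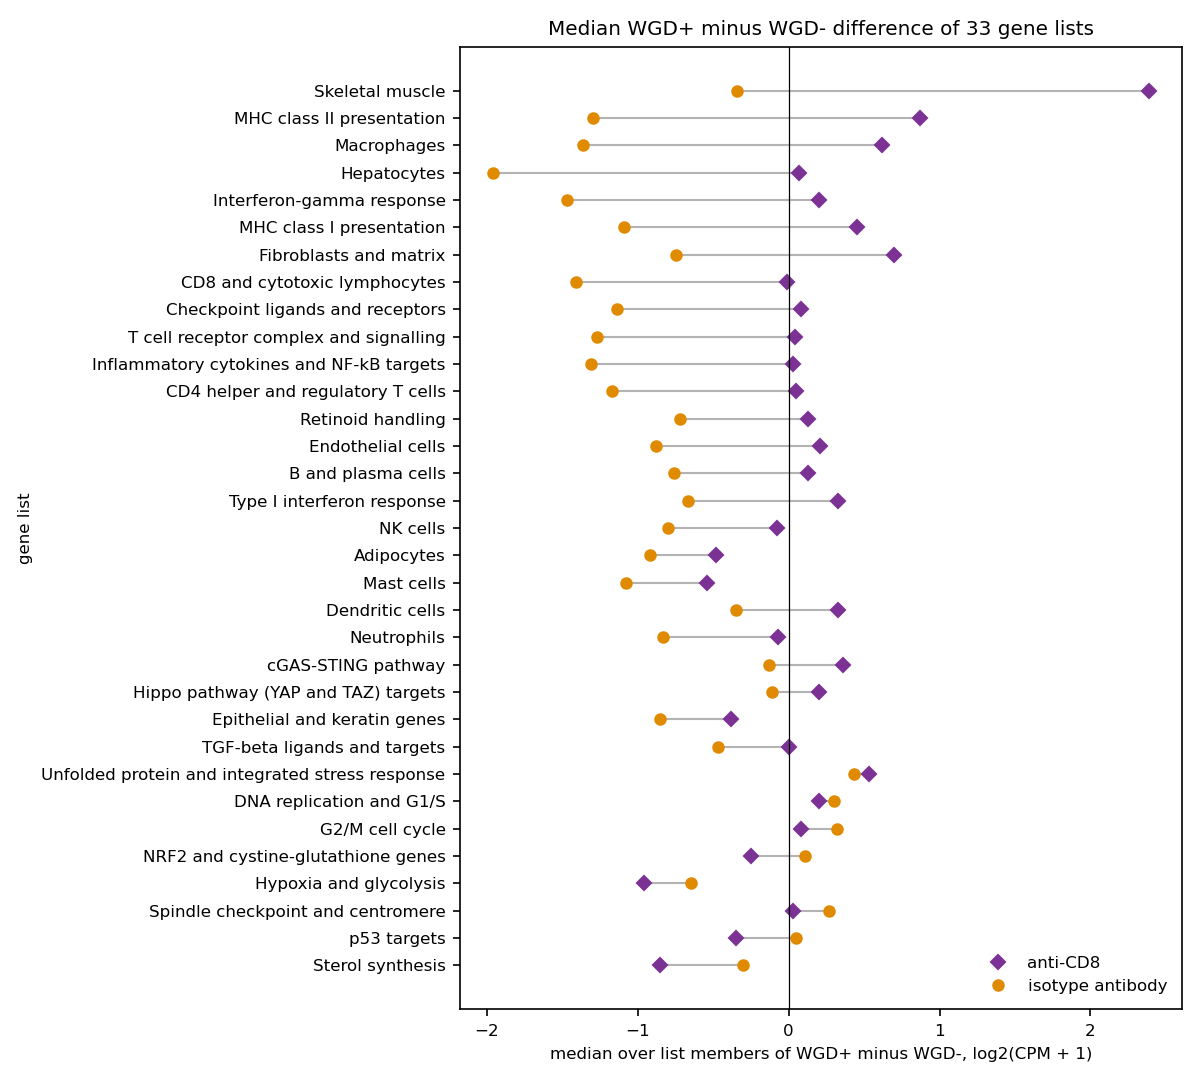
Median WGD+ minus WGD- difference of the tested members of 33 gene lists (horizontal axis, log2(CPM + 1) units) under anti-CD8 (diamonds) and isotype antibody (circles), ordered by the median of the difference between the effects. Immune lists lie between -0.08 and 0.87 under anti-CD8, mast cells at -0.54 excepted. Under isotype antibody they lie between -1.47 and -0.35, the cGAS-STING pathway at -0.13 excepted. Sterol synthesis at -0.85 and hypoxia at -0.96 lie lowest under anti-CD8.

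Genes called in both antibody settings numbered 33, all in the same direction, 13 higher and 20 lower in WGD+. They made up 15.2% of the anti-CD8 calls and 21.7% of the isotype calls. Of all 217 anti-CD8 calls, 184 had the same sign under isotype antibody, where 51.1% of all genes had the same sign. Among the higher ones were Slc6a9 with 2.27 under anti-CD8 and 1.66 under isotype antibody, Slc1a4 with 1.55 and 1.15, Prodh with 1.17 and 1.10, Mthfd2 with 1.16 and 1.02, with Cenpv, a centromere protein, at 1.02 and 1.65 and Lhpp at 1.29 and 0.86. The lower ones were led by Lpar3 with -2.82 and -2.43, Itga7 with -2.15 and -2.32, Cdhr1 with -1.99 and -1.82, Spint1 with -2.44 and -1.79, Aqp3 with -1.81 and -1.74 and Tmprss4 with -1.59 and -1.78. The 6 largest increases called under isotype antibody and not under anti-CD8 were those of Bmp7 (0.36 under anti-CD8, 1.80 under isotype antibody), Osr1 (1.19, 1.51), Pcsk6 (0.57, 1.46), Aldh1l2 (0.73, 1.46), Atf5 (1.04, 1.24) and Aldh5a1 (0.90, 1.24), and for none of them was the difference between the settings called. In a limma fit of the anti-CD8 groups alone Osr1 and Atf5 were called there too (adjusted p = 0.0244 and 0.0307), among 411 higher calls of 13840 genes. Slc7a11 differed by 1.64 under isotype antibody and was not called (limma adjusted p = 0.0699). Of the synthetase, one-carbon and stress response lists, 4, 3 and 2 members were called as higher under isotype antibody, beside 0.434% of all genes. The list medians there were 0.43, 0.49 and 0.43, against 0.36, 0.14 and 0.53 under anti-CD8.

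In the NSG host, which lacks mature T, B and NK cells, 394 of 13826 genes were called (2.85%) between tumours titled WGD+ and WGD- under vehicle, 124 higher (0.897%) and 270 lower (1.95%). Of the 216 anti-CD8 calls tested there, 26 were called in the same direction (12% of them, and 6.65% of the 391 NSG calls tested in both tables), 5 higher and 21 lower. Slc7a11 was at 6.62, 6.78 and 7.2 in WGD+ and at 4.25, 4.16 and 4.43 in WGD- by title in that host (2.59, limma adjusted p = 7.09e-06), close to its levels under anti-CD8. Prodh differed by 0.97 and Cebpg by 0.48 there, both called, while Chac1 differed by 0.09, Aars by 0.11 and Pck2 by -0.10, uncalled. Among the lower genes Lpar3 differed by -3.56, Itga7 by -3.13, Trim29 by -2.68, Cdhr1 by -2.16, Spint1 by -2.04 and Fbp2, a fructose-bisphosphatase, by -1.68, all called. Mdm2, Ccng1 and Eda2r differed by 0.13, -0.09 and 0.28 in that host, none called. The tables were normalized separately, so levels across them are not tested against each other.

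With the NSG groups taken from the titles, a set of 8 genes was called in all 3 settings: Prodh was higher in WGD+, and Lpar3, Spint1, Itga7, Cdhr1, Prrg4, Sox21 and 2610528A11Rik were lower. Sox21, a SOX family transcription factor, was at 1.04, 0.33 and 0.27 in WGD+ and at 2.36 and 2.17 in WGD- under anti-CD8 (-1.72, limma adjusted p = 0.035). The gene model 2610528A11Rik lies beside Cdhr1 at chr14:37102140-37114022 and was at 2.72, 4.36 and 2.26 in WGD+ and at 5.23 and 5.82 in WGD- (-2.41, adjusted p = 0.0453). WGD+ library 2 again was the highest of its group, and no WGD+ library reached the WGD- levels.

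The calls were spread unevenly over chromosomes. Chromosome 2 held 36 of the 137 lower genes (26.3%) and 1 of the 80 higher genes, Chac1, and it held 7.75% of the tested genes with a chromosome. Of its 1066 tested genes 64.5% had a negative difference, against 50.5% of all genes, and the median was -0.20. Chromosome 14 held 13 lower genes (9.49%) and 1 higher gene, Pck2, with 3.42% of the tested genes, and its median was also negative, at -0.17. Medians of the other 18 chromosomes ran from -0.09 to 0.10. The same 2 chromosomes had the lowest medians under isotype antibody, -0.09 and -0.10, and in the NSG host, -0.17 and -0.16, where the others ran from -0.04 to 0.06 and from -0.13 to 0.14. With WGD+ library 2 alone the anti-CD8 medians were -0.23 and -0.18, and with no filter on low genes both were -0.05.

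Lower genes of chromosome 2 lay along its whole length. They included Itih5 at chr2:10153571-10256529, Pdk1 at chr2:71873224-71903858, the adhesion receptor gene Cd44 at chr2:102811141-102901665 (-0.93), the matrix protein gene Thbs1 at chr2:118111876-118127133 (-1.56), Spint1 and Btbd3, the phospholipase gene Plcg1 at chr2:160731300-160775760 (-1.29) and Lgr4, a receptor for R-spondins, at chr2:109917647-110014257 (-1.39). Cd44 was at 8.88, 9.44 and 9.05 in WGD+ and at 9.98 and 10.12 in WGD- (limma adjusted p = 0.0257), with all WGD+ libraries below. On chromosome 14 the lower genes included Cdhr1, Sox21, the galectin gene Lgals3 (-1.33) and Glud1, which makes ammonia and ketoglutarate from glutamate (-0.74). Cd44, Thbs1, Plcg1, Lgr4, Lgals3 and Glud1 were chosen for their position after their values were seen.

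**Figure D5:**
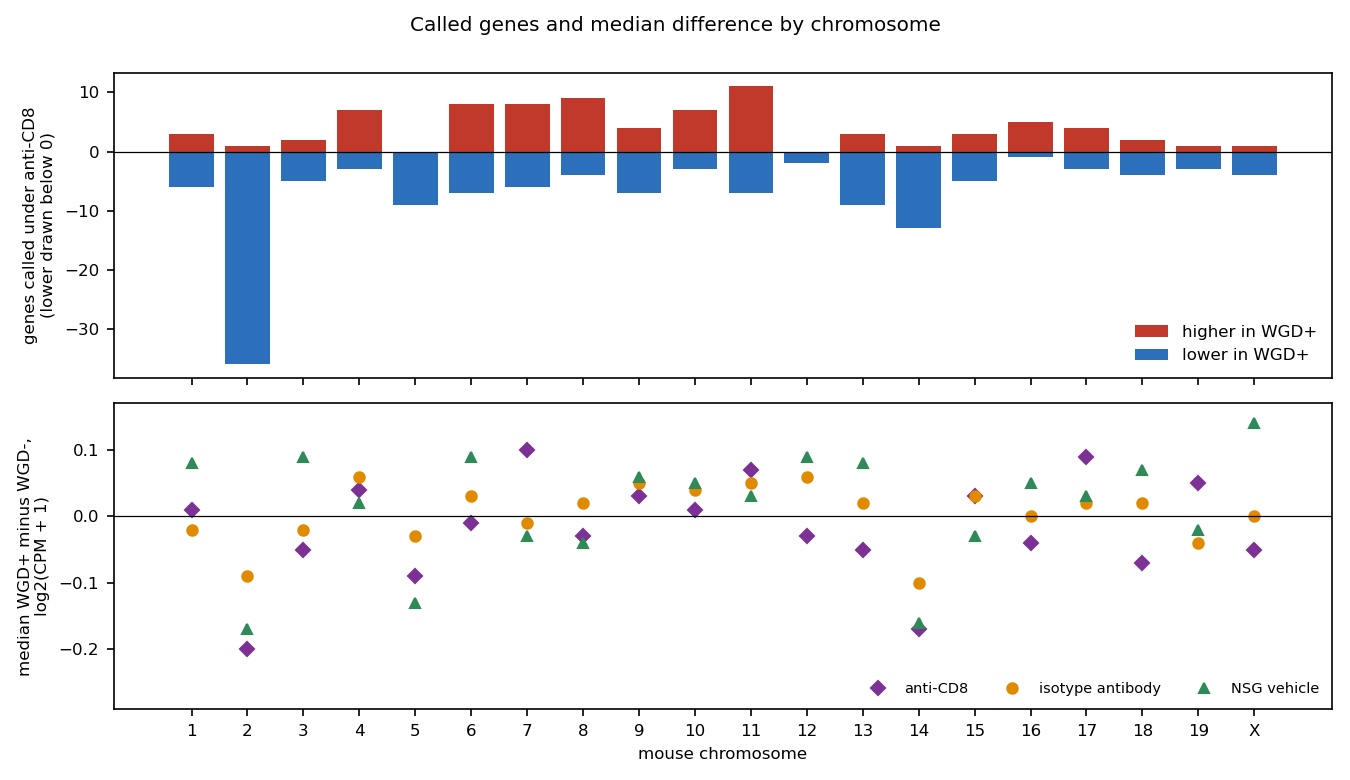
Upper panel, number of genes called under anti-CD8 on each mouse chromosome, higher in WGD+ above 0 and lower below; lower panel, median WGD+ minus WGD- difference of all tested genes of each chromosome (log2(CPM + 1) units) under anti-CD8 (diamonds), isotype antibody (circles) and vehicle in the NSG host (triangles). Chromosome 2 carries 36 lower calls, and chromosomes 2 and 14 have the lowest medians in each of the 3 settings.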

How the data were processed

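Bulk RNA of TA3 Hauschka tumours was sequenced. Deposited values are log2(CPM + 1) per gene and library, scaled by the authors within each experiment. Per the submitters' processing notes, STAR 2.5.1b, the mm10 build and edgeR were used; sources used here name neither a counting tool nor an annotation. Low values gave whole reads within 0.1 of a read (100%), and hence each library's depth. GENCODE M21 held 98.4% of 20185 symbols in the antibody table and 96.2% of 24360 in the table with the NSG libraries; coordinates are from it. Gene names turned into dates, 25 and 27, were left out, with no more than 0.221% of any library's reads.

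Groups came from titles; the genotype field of the NSG vehicle libraries titled WGD+ reads WGD-. Fits used limma 3.58.1 (R 4.3.3), separately for each table (17 and 24 libraries): group means, robust moderated variances with a trend on expression, and genes above 1 CPM in at least 3 libraries (13840 and 13826). Benjamini-Hochberg adjustment was made within a comparison. The members, lists and tests were chosen with earlier results of these data known, and lists are described without a test. The naming rule took Cd8a, Cd8b1 and Cd274; the 12 largest called differences each way with non-overlapping groups and a higher mean of at least 3; up to 4 called members of each list, or, with none called, the 2 of smallest p; the 6 each way largest among genes called under anti-CD8 and in another setting, or under isotype antibody alone; and the 3 each way with the smallest p for the difference between effects. Unnamed gene models were not eligible for these. Every other gene named was picked after its values were seen.

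Alternatives were no filter, a filter in 2 libraries, a pseudocount of 4, quantile scaling, a fit without the other groups, a replicate block, voom on recovered reads and each library left out. Chosen after seeing the data were WGD+ anti-CD8 library 2 as the sole WGD+ library, and omission of 4 libraries with a best correlation over 3 median absolute deviations below the median. Labels give the replicate numbers no meaning, so libraries were treated as unpaired. The fit was tested on simulated data. A listed 0 has a floor of 3 reads, which covers counting error only. Promoters are RefSeq windows of GRCm38.p6. Summaries used Python 3.11.15, pandas 2.3.3 and matplotlib 3.10.9. The time-course table was not used here, and 1 gene of the sterol list is not reported by name.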

Additional observations from a re-analysis of the deposited data

Results flagged for a closer look

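A difference between settings marked 10 of the named genes. In each, every WGD+ library lay on one side of every WGD- library under anti-CD8 and on the other side under isotype antibody. The difference between the WGD effects, tested as an interaction in limma, was called for none of them at an adjusted p under 0.05. The rule was applied to the named genes alone, and its share over all genes was not counted. Under anti-CD8 by itself, 6580 of all 13840 genes (47.5%) had non-overlapping groups.

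Of the genes so marked, 8 lay higher in WGD+ under anti-CD8 and lower under isotype antibody. In limma, genes of the macrophage and MHC class II lists among them were C1qa, a complement subunit (difference between effects 3.01, adjusted p = 0.254), Fcgr1, a receptor for antibodies (2.33, adjusted p = 0.256), and Ctss, the protease cathepsin S (2.84, adjusted p = 0.261). C1qa was at 8.64, 7.12 and 8.01 in WGD+ and 7.02 and 5.92 in WGD- under anti-CD8, and at 6.99, 5.15 and 7.25 in WGD+ and 7.31, 8.13 and 8.64 in WGD- under isotype antibody. By the same limma test Csf3 gave 2.27 (adjusted p = 0.247), the checkpoint gene Vsir 1.79 (adjusted p = 0.256), the protease inhibitor gene Cst7 1.44 (adjusted p = 0.322), and the matrix genes Col5a1 1.80 (adjusted p = 0.256) and Ltbp2 1.95 (adjusted p = 0.247). The matrix genes moved with fibroblast transcripts, which were at 1940, 699 and 2300 CPM in WGD+ and 991 and 629 CPM in WGD- under anti-CD8; their part was not tested.

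In limma the others lay lower in WGD+ under anti-CD8 and higher under isotype antibody: Esyt3 with -1.65 (adjusted p = 0.247) and Nfatc1, a transcription factor of calcium signalling, with -1.09 (adjusted p = 0.247). Esyt3, Nfatc1 and Csf3 were named for a small p in this same test, Csf3 also as a member of its list. Their place here thus follows in part from that choice.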

How the results depend on the processing

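The count of 217 anti-CD8 calls was 62 with no filter, 800 in a fit of the 2 groups alone and 0 with WGD+ library 2 alone of its group, and it ran from 0 to 609 over the fits that leave out 1 library, in which a lone WGD- library is assumed to vary like the other groups. Without the 4 libraries that stand apart it was 94. With the replicate number as a block it was 62, and the isotype count was 63; deviations of same-numbered libraries correlated at -0.212 to -0.0565 under isotype antibody and -0.0708 to 0.125 in the NSG host, and 0 of 6 isotype libraries and 2 of 6 NSG libraries correlated best with their own number. The 152 isotype calls were 89 with no filter, 50 by voom, 52 in a fit of the groups alone, 11 without the libraries that stand apart and 20 to 85 with 1 library left out. The 394 NSG calls were 2462 in a fit of the groups alone and 107 to 194 with 1 library left out. The cause of these moves was not tested, beyond the smaller number of libraries. The interaction gave 0 calls in every fit run. Cd8a kept its sign and stayed uncalled for anti-CD8 minus isotype in both forms, from -2.63 to -1.79 in WGD- and from -0.40 to -0.04 in WGD+ with 1 library left out.

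Of 38 named anti-CD8 calls, 38 held with a filter in 2 libraries, 37 with a pseudocount of 4, 35 by voom, 32 with quantile scaling, 36 in the fit of the groups alone, 18 with the block, 18 without the libraries that stand apart and 13 with no filter. All 38 held without WGD+ library 2, and 0, 1, 0 and 0 held without WGD- library 1, WGD- library 2, WGD+ library 1 and WGD+ library 3; the gene that held was Slc6a9. No called gene among those named changed sign in any fit run. List medians moved by more than their typical standard error in 13 cases, 4 of them in the hypoxia list, and by less in 477. Depth limits what can be said of Cd8a and Cd8b1, whose levels rest on few reads.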

Other observations

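Genes of the placental prolactin family, a cluster on chromosome 13 normally active in trophoblast, were detected in these mammary tumours. Among 22 listed genes, 6 were tested, and 2 were lower in WGD+ under anti-CD8, beside 0.99% of all genes. Prl8a9 was at 0.77, 0.00 and 1.07 in WGD+ and at 2.62 and 2.72 in WGD- (-2.05 ± 0.40, limma adjusted p = 0.0258), and Prl6a1 was at 1.97, 1.93 and 2.36 in WGD+ and at 3.81 and 3.60 in WGD- (-1.62 ± 0.29, adjusted p = 0.0215). Neither gene's groups overlapped. Under isotype antibody 5 of the 6 were lower in WGD+, beside 0.665% of all genes, Prl8a9 among them at -2.89 (adjusted p = 0.002). Reads of this family can be shared between close copies. The family was picked after its values were seen.

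Foxp3 and Klrb1c did not follow Cd8a in the NSG host. Foxp3 was at 5.13, 4.82 and 4.73 in WGD+ and 3.98 and 3.94 in WGD- tumours under anti-CD8, and it was at 3.78, 3.73 and 3.54 in WGD+ and 3.78, 3.79 and 3.78 in WGD- tumours of the NSG host, which lacks mature T cells. Klrb1c, the NK1.1 gene, was at 4.69, 4.90 and 4.66 in WGD+ and 4.77 and 5.31 in WGD- under anti-CD8, and at 4.51, 4.39 and 4.72 in WGD+ and 4.23, 4.07 and 4.08 in WGD- in the NSG host, which lacks NK cells. Cd8a in that host was at 0.00 in all 3 WGD+ libraries and at 0.00, 0.00 and 0.19 in WGD- libraries. In that host Foxp3 and Klrb1c were thus detected in every library, and Cd8a in 1 of 6.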
